A study of Mus musculus with 4 samples.

Results

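Growth hormone and insulin-like growth factor (IGF) signalling was described in the mouse suprachiasmatic nucleus (SCN), the clock nucleus of the hypothalamus, through 10 genes chosen by symbol: Ghr, Stat5b, Cish, Socs2, Bcl6, Ghsr, Igf1, Igf1r, Igfbp2 and Igfbp5. The choice was made with earlier results of these data known. On the array, 12 probesets named exactly 1 of these genes, out of 23521 probesets that named 1 gene and 22180 genes in all. Cish and Socs2 had 2 probesets each and the other 8 genes had 1. RNA came from laser-microdissected SCN of non-HPX (control) and HPX (hypophysectomized, pituitary removed) mice, at 2 points of a day of 12 h light and 12 h darkness, Zeitgeber time (ZT) 2, in the early light, and ZT14, in the early dark. Each of the 4 groups, non-HPX ZT2, non-HPX ZT14, HPX ZT2 and HPX ZT14, is 1 array of pooled tissue. The design text gives 10 animals per time and does not say whether that holds within each surgical state. The labels name no strain, sex, age, interval since surgery or hormone replacement. Removing the pituitary takes away all of its hormones at once, so growth hormone cannot be told apart from the others. A difference between groups is a difference between 2 arrays with no replicate check, and how much animals vary was not measured.

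Growth hormone is released by the pituitary and acts through its receptor GHR, whose associated kinase JAK2 phosphorylates the transcription factors STAT5A and STAT5B. Activated STAT5 binds DNA at the palindrome TTCNNNGAA and induces, in responsive tissues, Igf1 and the feedback inhibitors Cish and Socs2. BCL6 is a transcriptional repressor that can occupy the same kind of site as STAT5. IGF-1 signals through the receptor tyrosine kinase IGF1R, and a family of secreted binding proteins (IGFBPs) holds it in the extracellular space. GHSR, the receptor for ghrelin, is found in hypothalamic neurons and in the pituitary, where ghrelin stimulates growth hormone release.

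The start regions of Cish and Bcl6 are shown because they carry the STAT5-type palindrome. RefSeq windows (GRCm38.p6) of 280 bases, from 250 bases before a transcript start through 30 bases from it on, were at hand for 9 of the 10 genes, 13 windows in all. The palindrome, which reads alike on both strands, was found in 3 of these windows and in 7.83% of all 32851 windows. The Cish window held 2 copies, TTCCTGGAA with its first base at +1 and TTCTTGGAA at +12 from the start, and 2 or more copies were found in 0.408% of all windows. Of the 2 Bcl6 windows, 1 held 3 copies, with first bases at -168, -122 and -88, and the other held 1 copy at -118. Capitals mark the palindrome, and each sequence runs 5′ to 3′ on the gene's strand.
Cish, chr9:107296409-107296688, plus strand: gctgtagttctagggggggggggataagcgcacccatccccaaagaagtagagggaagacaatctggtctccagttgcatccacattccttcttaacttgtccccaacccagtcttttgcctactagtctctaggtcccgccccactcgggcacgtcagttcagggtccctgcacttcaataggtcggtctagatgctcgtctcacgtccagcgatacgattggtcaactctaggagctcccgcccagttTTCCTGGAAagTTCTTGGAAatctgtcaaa
Bcl6, chr16:23981254-23981533, minus strand: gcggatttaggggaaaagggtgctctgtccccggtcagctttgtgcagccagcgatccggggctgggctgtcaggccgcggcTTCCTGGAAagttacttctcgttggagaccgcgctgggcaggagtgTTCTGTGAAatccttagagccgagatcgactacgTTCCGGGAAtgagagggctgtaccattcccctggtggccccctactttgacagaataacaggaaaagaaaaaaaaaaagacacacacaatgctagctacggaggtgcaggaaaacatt
Bcl6, chr16:23988823-23989102, minus strand: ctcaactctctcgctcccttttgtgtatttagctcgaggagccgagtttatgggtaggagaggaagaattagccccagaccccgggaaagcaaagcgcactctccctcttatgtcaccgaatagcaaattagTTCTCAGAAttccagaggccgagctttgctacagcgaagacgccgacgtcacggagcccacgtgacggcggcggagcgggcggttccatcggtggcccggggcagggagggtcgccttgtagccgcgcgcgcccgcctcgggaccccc
The Igfbp5 window is shown beside them because this gene had nearly the same profile over the 4 arrays as Bcl6.
Igfbp5, chr1:72874836-72875115, minus strand: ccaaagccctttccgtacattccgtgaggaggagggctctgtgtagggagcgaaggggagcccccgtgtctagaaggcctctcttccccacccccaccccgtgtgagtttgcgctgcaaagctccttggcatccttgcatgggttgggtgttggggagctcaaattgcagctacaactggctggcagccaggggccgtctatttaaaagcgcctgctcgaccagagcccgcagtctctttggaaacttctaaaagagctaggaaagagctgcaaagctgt
The Igfbp5 window held neither the palindrome nor the E-box CACGTG, the site of the clock activators, which was searched as well and also reads alike on both strands. The E-box lay in 2 member windows (1 of Bcl6 and 1 of Igfbp2) and in 6.79% of all windows. A match describes the letters only.

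The levels are log2 values made with robust multi-array averaging (RMA). Here an expressed probeset is one with a maximum over the arrays of at least 6.02, which is the median maximum of single-gene probesets, and 11761 met this floor. By this floor 5 member probesets were expressed (Igf1r, Ghsr, Igfbp5, Stat5b and Bcl6) and 7 were not. As a second yardstick, 1457 probesets for olfactory and vomeronasal receptors and keratin-associated proteins, expected to be silent in brain, had a median highest value of 3.20 and a 95th percentile of 5.42. Against this yardstick the members under the floor were not alike. Ghr, at 5.98 on its highest array, lay above 97.3% of the silent set, and the Socs2 probesets above 96.0% and 96.6%. Igfbp2 and 1 Cish probeset (17530881) lay just past the 95th percentile, above 95.5% and 95.6%. Igf1 lay above 94.0% and the other Cish probeset (17521300) above 81.9%, both within the range of genes expected to be silent.

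**Figure D1:**
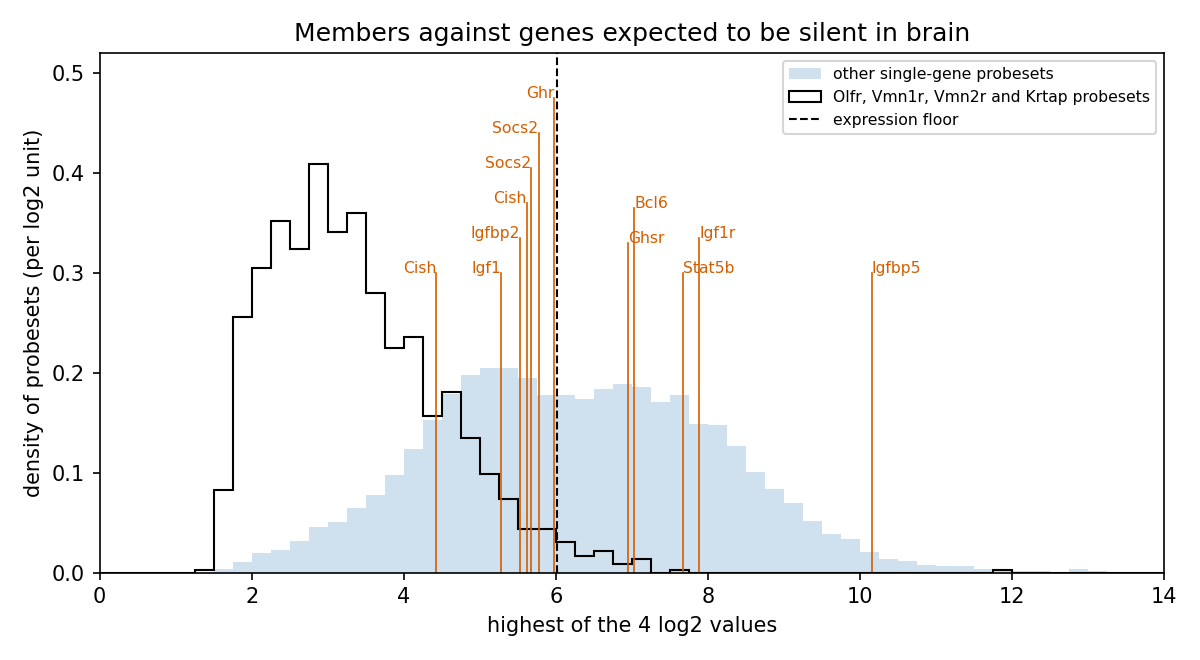
Density of the highest of the 4 log2 values of each probeset, for the 1457 probesets of genes expected to be silent in brain (black outline) and all other single-gene probesets (blue), with the 12 member probesets as orange lines and the expression floor of 6.02 dashed. Of the members, 5 lie to the right of the floor, while 1 Cish probeset and Igf1 lie below the 95th percentile of the silent set, 5.42.

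All 8 SCN markers (Avp, Vip, Six6, Lhx1, Rora, Rgs16, Nms and Vipr2) were expressed on the arrays, and 0 of 7 measured pituitary genes were. The 4 arrays had medians from 5.45 to 5.52 over all probesets and SDs from 2.03 to 2.06, the narrowest being HPX ZT2. On that array expressed probesets ran low as a whole: 65.1% were below their non-HPX ZT2 value, with a median difference of -0.06. The precision is limited by the number of arrays.

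Ghr, the growth hormone receptor gene, and Stat5b had ranges of 0.25 and 0.22 over the 4 arrays. Ghr stood at 5.98 in non-HPX ZT2, 5.82 in non-HPX ZT14, 5.95 in HPX ZT2 and 5.73 in HPX ZT14. Both ZT14 values were below both ZT2 values, with night differences of -0.16 in non-HPX and -0.22 in HPX, and HPX differed from non-HPX by -0.04 at ZT2 and -0.09 at ZT14. All 4 values lay under the floor, so the size of these differences is uncertain. Stat5b, the STAT5 form past the floor, stood at 7.67, 7.68, 7.45 and 7.61 in the same order. Its value on the HPX ZT2 array was the low one, 0.22 below non-HPX ZT2, and the other 3 lay within 0.07 of each other. Its paralogue Stat5a, the neighbouring gene, named after its values were seen, lay under the floor on all arrays. On its highest array it stood at 5.997, just under the floor and above 97.5% of the silent set.

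Transcripts of the feedback inhibitors and of IGF-1, the classical targets of growth hormone, were under the floor on every array. Igf1 and Cish probeset 17521300 lay below the 95th percentile of the silent set, 5.42, on every array. Cish probeset 17530881 passed it only in HPX ZT2, and both Socs2 probesets lay above it on every array. Cish, an inhibitor induced by STAT5, read 4.39, 4.28, 4.43 and 4.30 by probeset 17521300 and 5.25, 5.31, 5.62 and 5.41 by probeset 17530881 (non-HPX ZT2, non-HPX ZT14, HPX ZT2, HPX ZT14). Both probesets were highest in HPX ZT2 but differed in size, the second being 0.37 above non-HPX ZT2 and the first 0.04. Their night differences in non-HPX had opposite signs, -0.11 for the first and 0.06 for the second. Where each Cish probeset lies in the gene is not given in the sources used here. Socs2, a brake on growth hormone receptor signalling, read 5.63, 5.66, 5.67 and 5.55 by probeset 17244486 and 5.75, 5.74, 5.77 and 5.77 by probeset 17274184. The range over the 4 arrays was 0.12 for the former and 0.03 for the latter, the smallest of the 12 probesets. Together with Socs1 and Socs3, 7 probesets of 4 inhibitor genes were measured and 0 were expressed. Igf1 itself stood at 5.28, 5.27, 5.28 and 5.17, a range of 0.12, and HPX differed from non-HPX by -0.00 at ZT2 and -0.10 at ZT14. At these levels small differences between HPX and non-HPX cannot be seen, which does not show that there were none.

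Bcl6 and Igfbp5 were the members with the widest range, and in both the HPX arrays set the extremes. Bcl6 stood at 6.62 in non-HPX ZT2, 6.74 in non-HPX ZT14, 6.44 in HPX ZT2 and 7.03 in HPX ZT14. It was lowest in HPX ZT2 and highest in HPX ZT14, so that night exceeded day by 0.59 in HPX (1.506-fold) and by 0.13 in non-HPX (1.09-fold). Igfbp5, which encodes a secreted IGF-binding protein, stood at 9.70, 9.81, 9.57 and 10.15 in the same order. Its night difference was 0.59 in HPX (1.503-fold) and 0.11 in non-HPX (1.08-fold). Both sat just past the 1.5-fold line in HPX, 0.585 on the log2 scale; after cyclic loess scaling of the arrays Bcl6 stood at 0.59 and Igfbp5 at 0.54, so that only Bcl6 stayed past it. Their differences in HPX were larger in size than those of 98.2% (Bcl6) and 98.1% (Igfbp5) of expressed probesets. The neighbouring gene Igfbp2, also an IGF-binding protein gene, read 5.53, 5.37, 5.36 and 5.44, under the floor, with a night difference of -0.16 in non-HPX and 0.08 in HPX.

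Ghsr and Igf1r, the receptors for ghrelin and IGF-1, shared a crossed profile. Ghsr stood at 6.87 in non-HPX ZT2, 6.58 in non-HPX ZT14, 6.64 in HPX ZT2 and 6.95 in HPX ZT14. It was lower at night in non-HPX, by 0.29 on the log2 scale, and higher at night in HPX, by 0.31. Igf1r stood at 7.86, 7.61, 7.62 and 7.88, with night differences of -0.25 in non-HPX and 0.26 in HPX. For both genes the high arrays were non-HPX ZT2 and HPX ZT14, and the low arrays the other two. As folds these were 1.22 and 1.24 for Ghsr and 1.19 and 1.20 for Igf1r. The sizes exceeded those of 89.5% (Ghsr) and 85.2% (Igf1r) of expressed probesets in non-HPX and of 83.2% and 76.4% in HPX.

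**Figure D2:**
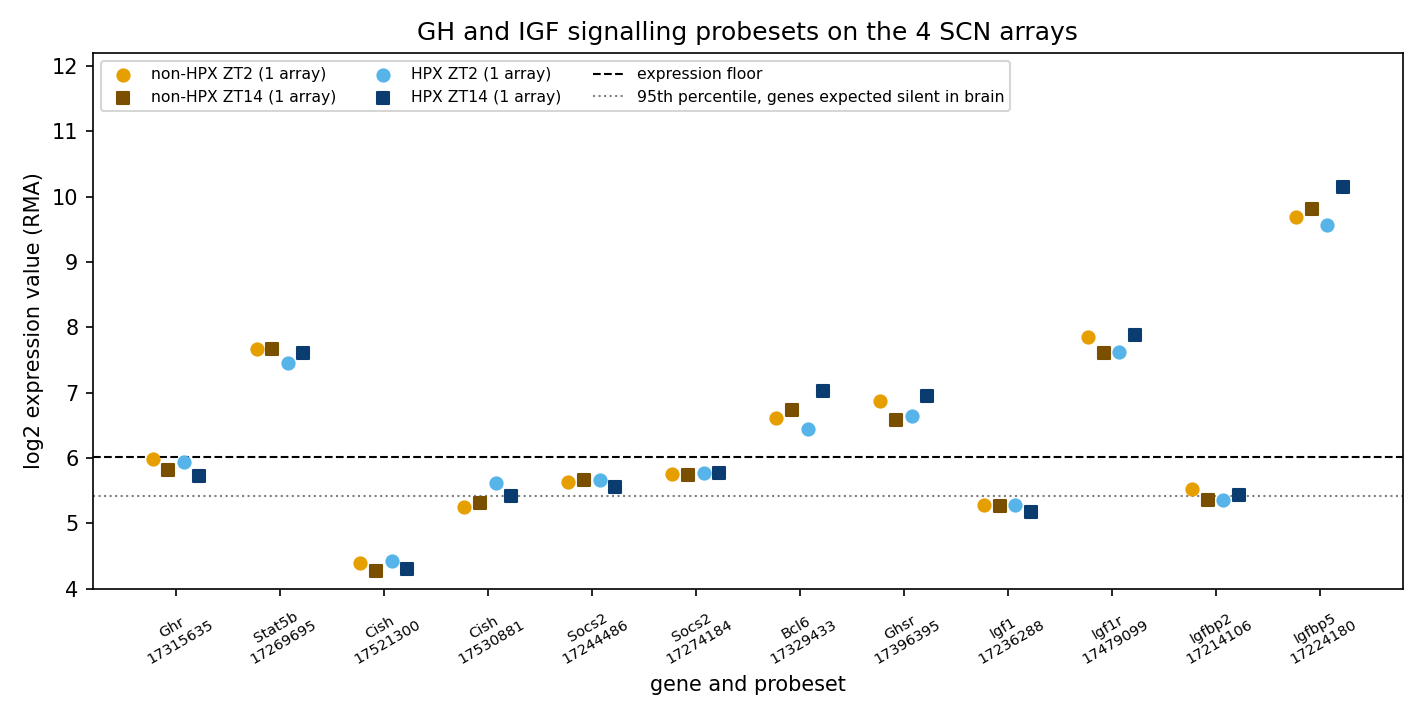
Log2 expression values (vertical axis) of the 12 member probesets on the 4 arrays (orange and brown, non-HPX at ZT2 and ZT14; light and dark blue, HPX at ZT2 and ZT14; 1 array each), with the floor of 6.02 dashed and the 95th percentile of the silent set, 5.42, dotted. HPX ZT14 is the highest array for Bcl6, Ghsr, Igf1r and Igfbp5, and values of different probesets are not to be set against each other.

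Over the 5 expressed members, the night array was set against the day array of the same state. In non-HPX 0 of the 5 were at least 1.5-fold apart either way, where 1.12% of all expressed probesets were, and the median was 0.00 beside -0.03 over all expressed probesets. In HPX all 5 were higher at night and 2 (Bcl6 and Igfbp5) at least 1.5-fold so. Of all expressed probesets 58.0% were higher at night in HPX and 1% were at least 1.5-fold higher. The members' median was 0.31 and that of all expressed probesets 0.04. The night difference in HPX minus that in non-HPX was 0.59 for Ghsr, 0.51 for Igf1r, 0.48 for Igfbp5, 0.47 for Bcl6 and 0.15 for Stat5b. None of the 5 reached 2-fold, which 0.111% of expressed probesets did. The first 4 exceeded in size 97.2%, 94.0%, 92.6% and 91.8% of expressed probesets.

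HPX and non-HPX were also compared within each time. At ZT2 all 5 expressed members had lower values in HPX, from -0.13 (Igfbp5) to -0.24 (Igf1r), with a median of -0.22 beside -0.06 over all expressed probesets. At ZT14 the values of 4 were higher in HPX, Ghsr by 0.37, Igfbp5 by 0.35, Bcl6 by 0.29 and Igf1r by 0.27, while Stat5b stood at -0.07; the median was 0.29 beside 0.01. Of all expressed probesets 65.1% were lower in HPX at ZT2 and 53.0% were higher at ZT14. At neither time was a member at least 1.5-fold apart, where 0.85% of expressed probesets were at ZT2 and 0.663% at ZT14. The order of lower in HPX at ZT2 and higher at ZT14 held for 4 of the 5 members and for 37.2% of all expressed probesets. Together with a night difference below 0 in non-HPX and above 0 in HPX it held for 2 members, Ghsr and Igf1r, and for 24.1% of expressed probesets. The comparisons share arrays, so the low HPX ZT2 and high HPX ZT14 values of these genes enter both the night difference in HPX and the differences between states. The 7 member probesets under the floor had medians of 0.02 at both times. In tissue pools such as these, fewer cells of a type and less RNA per cell cannot be told apart.

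**Figure D3:**
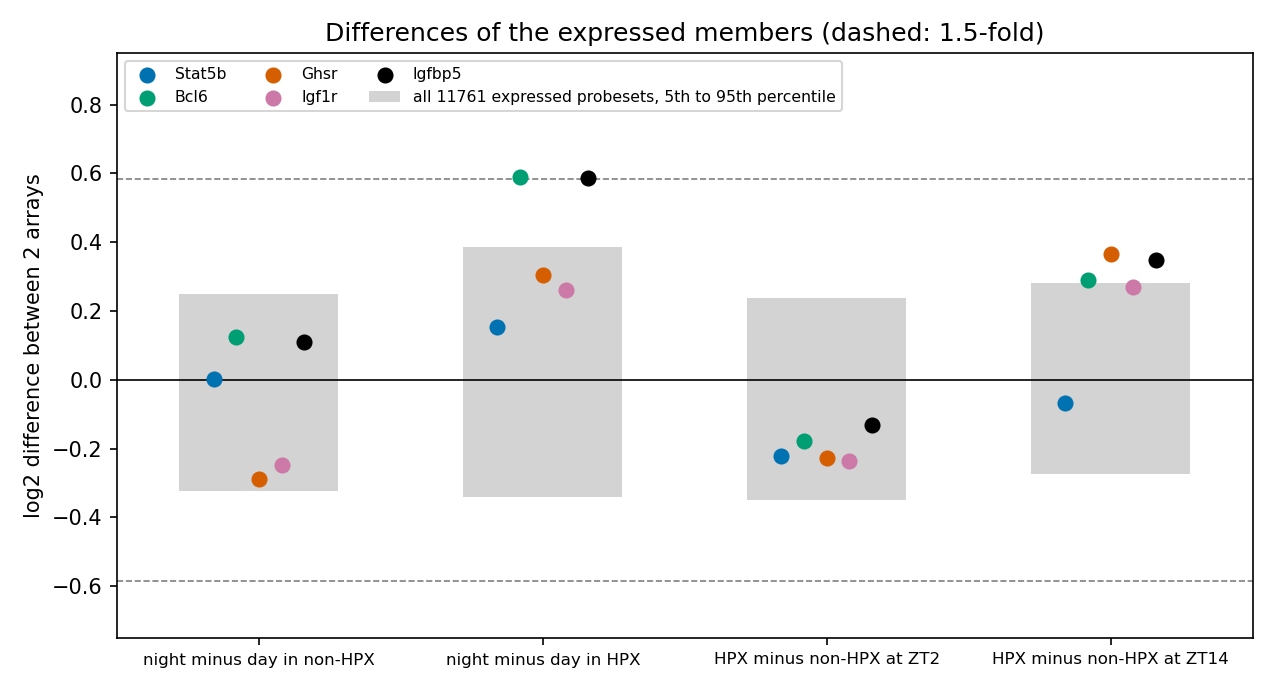
Log2 differences between 2 arrays (vertical axis) for the 5 expressed members in the 4 comparisons, with the 5th to 95th percentile of all 11761 expressed probesets as grey bars and 1.5-fold as dashed lines. Bcl6 and Igfbp5 reach 0.59 at night in HPX, all 5 lie below 0 for HPX at ZT2, and 4 lie between 0.27 and 0.37 for HPX at ZT14.

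The arrays were also joined in 1 linear model, limma, with a term for time and a term for surgery and a spread borrowed from all probesets. What the terms leave over, 1 degree of freedom, is their interaction, and a crossed profile therefore counts as noise. For time of day 0 of the 5 expressed members passed an adjusted p of 0.05, beside 0.289% of all expressed probesets, and 2 had an unadjusted p under 0.05, beside 8.16%. These were Bcl6, at 0.36 ± 0.14 (SE; limma adjusted p = 0.552), and Igfbp5, at 0.35 ± 0.14 (limma adjusted p = 0.586), each higher at night in 2 of 2 states. Ghsr and Igf1r averaged to 0.01 each over the states. For surgery 0 of 5 passed, beside 0.0765% of all expressed probesets, and 0 had an unadjusted p under 0.05, beside 4.46%. The 95% intervals of the surgery effect, HPX minus non-HPX, ran from -0.29 to 0.42 for Ghsr, from -0.31 to 0.35 for Igf1r, from -0.21 to 0.43 for Igfbp5, from -0.26 to 0.38 for Bcl6 and from -0.40 to 0.12 for Stat5b. Each thus leaves room for an average difference of either sign. An exact permutation test of 2 arrays against 2 cannot give a two-sided p under 0.333.

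The profiles of the 5 expressed members were compared after each was centred on its own mean over the 4 arrays. Bcl6 and Igfbp5 lay 0.0536 apart (Euclidean distance, log2), with 6 of the 11761 expressed probesets nearer to Bcl6 than Igfbp5 was. Ghsr and Igf1r lay 0.0676 apart, with 41 probesets nearer to Ghsr than Igf1r was and 90 nearer to Igf1r than Ghsr was. The distances of Bcl6 and Igfbp5 from Ghsr and Igf1r were larger, from 0.346 to 0.355. Stat5b lay 0.251 from Igf1r, 0.315 from Ghsr, 0.379 from Bcl6 and 0.405 from Igfbp5. For Bcl6, the member with the widest range, the nearest genes other than itself were Pcdh18 (0.0283), a protocadherin, St8sia2 (0.0368), a polysialyltransferase, and Cox15 (0.0511), a mitochondrial protein needed for heme A synthesis. These are distances over 4 arrays, which describe the profiles and carry no test.

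The wider pathway was followed with 51 further symbols, of which 47 had a probeset of their own and 26 were expressed (1 probeset each). Of these 26, 1 was at least 1.5-fold higher at night in each state and 0 lower, where 0.408% of expressed probesets were higher in non-HPX and 1% in HPX. That gene was Grb14, an adaptor that binds and inhibits the insulin receptor. It stood at 6.14 in non-HPX ZT2, 6.99 in non-HPX ZT14, 6.20 in HPX ZT2 and 7.04 in HPX ZT14, 1.79-fold and 1.78-fold higher at night. Both ZT14 arrays were high and both ZT2 arrays low, and Grb14 rose in the additive fit (0.84 ± 0.11, SE; limma adjusted p = 0.0338), but with no floor (adjusted p = 0.574) and with the floor set from silent genes (adjusted p = 0.0580) it did not pass. For surgery 1 of the 26 was at least 1.5-fold lower in HPX at both times and 0 higher, where 0.629% of expressed probesets were lower at ZT2 and 0.493% at ZT14. That gene was Sst, which encodes somatostatin, the hypothalamic inhibitor of growth hormone release.

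Sst stood at 10.81 and 10.91 in non-HPX and at 10.03 and 10.13 in HPX (ZT2, ZT14). Both HPX values lay below both non-HPX values, by 0.79 at ZT2 and 0.78 at ZT14 on the log2 scale. The additive fit gave -0.78 ± 0.11 (SE; limma adjusted p = 0.111). Sst passed with the mean of probesets per gene (limma adjusted p = 0.0363) and with an intensity trend in the prior (limma adjusted p = 0.0137). It did not pass after cyclic loess, with no floor, under a stricter floor or with the floor set from silent genes. The somatostatin receptor gene Sstr3 differed the other way, at 5.73 and 6.05 in non-HPX and 6.01 and 6.43 in HPX, partly under the floor (0.33 ± 0.11, SE; limma adjusted p = 0.990). Transcripts of the growth hormone-releasing hormone gene Ghrh and of its receptor Ghrhr, both named after their values were seen, were under the floor. Mrap2, an accessory protein of the ghrelin and melanocortin receptors, was 0.37 lower at night in non-HPX and 0.23 lower in HPX.

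Among IGF ligands and receptors, Igf2 stood at 6.18, 6.33, 6.10 and 5.90 (non-HPX ZT2, non-HPX ZT14, HPX ZT2, HPX ZT14), lowest in HPX ZT14, 0.42 below non-HPX ZT14. The HPX ZT14 value of Igf2 lay under the floor and the others were little past it, so the size of this difference is uncertain. Of the other binding protein genes on the list only Igfbp4 and Igfbp7, named after their values were seen, were expressed. Downstream, Jak2 was highest in HPX ZT2 (8.81) and lower at night by 0.23 in non-HPX and 0.43 in HPX. The adaptor Irs4 was higher at night by 0.16 in non-HPX and 0.45 in HPX by its expressed probeset. By its other probeset, which lay under the floor, Irs4 was higher by 0.25 in non-HPX and 0.05 in HPX. The transcription factor Foxo1 was 0.27 lower in HPX at ZT2 by its expressed probeset and 0.02 higher by its other probeset, which lay under the floor. Stat3, named after its values were seen, had a profile like that of Ghsr, at 8.21, 7.95, 7.99 and 8.30. Over the 26 expressed genes of this list the order of lower in HPX at ZT2 and higher at ZT14 held for 11, against the 37.2% of all expressed probesets given above, and the full crossing with the night differences for 8, against 24.1%.

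**Figure D4:**
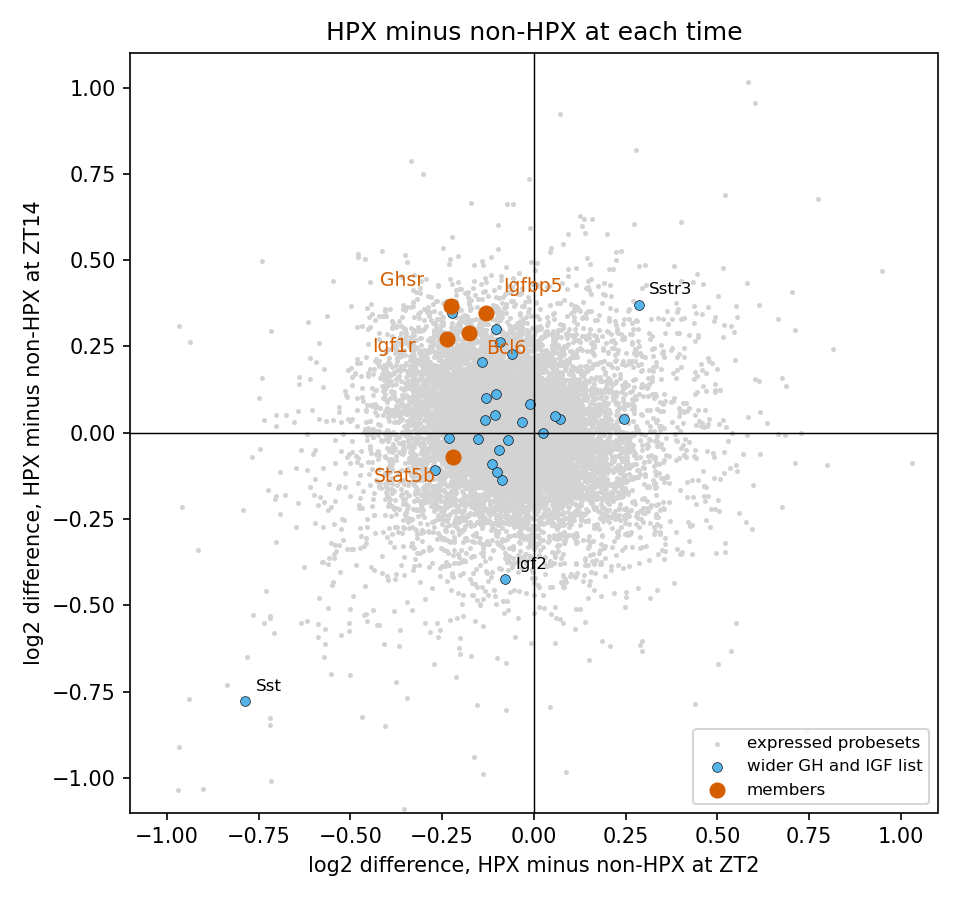
Log2 difference of HPX minus non-HPX at ZT2 (horizontal axis) and at ZT14 (vertical axis) for all expressed probesets (grey; 8 lie outside the plotted range), the 26 expressed genes of the wider list (blue) and the 5 expressed members (orange). Ghsr, Igf1r, Igfbp5 and Bcl6 lie at the upper left, Stat5b just under the zero line, and Sst at -0.79 and -0.78.

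Markers of the SCN and of other cells that the dissected tissue could hold were summed on each array. The 8 SCN markers summed to 10854 in non-HPX ZT2, 10314 in non-HPX ZT14, 10360 in HPX ZT2 and 10761 in HPX ZT14. Their median for HPX minus non-HPX was -0.06 at ZT2 and 0.15 at ZT14. Their profiles were mixed: Avp was lowest in HPX ZT2 (10.82) and highest in HPX ZT14 (11.50), while Nms was highest in HPX ZT2 (9.58). The summed linear level of the 9 measured markers of other hypothalamic neurons was 2757 in non-HPX ZT2, 2730 in non-HPX ZT14, 1110 in HPX ZT2 and 1415 in HPX ZT14, mostly through Oxt. Over all 9 the median for HPX minus non-HPX was -0.10 at ZT2 and -0.14 at ZT14. Only 4 of the 9 were expressed, and over these the medians were -0.68 and -0.78. Of these, Oxt, Th and Trh were lower in HPX at both times. Hdc was 0.10 lower in HPX at ZT2 but higher at ZT14, at 7.38 against 7.11 in non-HPX. The sum over all 9 was lower in both HPX arrays than in both non-HPX arrays. The 6 endothelial markers summed to between 562 and 625, highest in HPX ZT14, with a median of 0.43 for HPX minus non-HPX at ZT14 and 0.00 at ZT2. Ly6c1 and Tek were under the floor on every array, and over the 4 expressed markers the medians were 0.27 and 0.12. Summed levels lay between 3286 and 3582 for 6 astrocyte markers, between 922 and 979 for 6 microglial markers and between 1319 and 1698 for 5 oligodendrocyte markers, the last lowest in HPX ZT14. Those of meninges and fibroblasts (6 genes, 7 probesets) lay between 273 and 334 and those of choroid plexus and ependyma (6 genes) between 936 and 1062. Some of these sums include probesets under the floor (6 of the 7 for meninges and fibroblasts), so the sums do not show that a cell type was present. The part of these cells in the differences of the members and of Sst was not tested.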

How the data were processed

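Per the submitters' processing notes, the authors made the deposited log2 values with RMA in Affymetrix Expression Console, with no version named. RMA gives the arrays a common distribution, which hides any shift that most genes share. Per the labels' protocols, cDNA was labelled with biotin (WT PLUS kit). Probesets were named by the array platform's annotation: among 41345, 23521 named 1 gene, 1814 several, and 16010 were not listed. By Entrez identifier 23328 were found in RefSeq (GRCm38.p6), with 0 symbols changed. The named genes are all 12 member probesets, and from the wider list those past 1.5-fold or past the fit plus up to 3 per comparison with the largest differences; other names are background or marked in the text. Members, lists and motifs were chosen with earlier results of these data known. Fits used limma 3.58.1 in R 4.3.3 (lmFit, eBayes; two-sided, Benjamini-Hochberg over 11761 probesets; 6.576 prior degrees of freedom), tested on simulated data. Other steps used Python 3.11.15, numpy 2.4.6 and pandas 2.3.3. Alternatives were cyclic loess, other floors, gene means, other folds and a prior trend.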

Additional observations from a re-analysis of the deposited data

Results flagged for a closer look

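In 4 of the 5 expressed members the HPX effect had opposite signs at the times, lower in HPX at ZT2 and higher at ZT14. The difference of the night change (HPX minus non-HPX, log2) was 0.59 for Ghsr, 0.51 for Igf1r, 0.48 for Igfbp5 and 0.47 for Bcl6. In Ghsr and Igf1r the night change had opposite signs in the states too. These differences were not tested, since each group is 1 array. The same order of signs in the HPX effect was found in 37.2% of expressed probesets, and together with the crossed night change in 24.1% and in 8 of the 26 expressed genes of the wider list.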

How the results depend on the processing

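No paired analysis was possible because the labels carry no replicate numbers and each group is 1 array; leaving out an array leaves the additive fit no residual. The count of members at least 1.5-fold higher at night in HPX was 2, but 1 after cyclic loess (Bcl6) and 1 under a stricter floor of 7.49 (Igfbp5, Bcl6 being under it). With the lower fold tried (0.32 on the log2 scale) 2 members were higher in HPX at ZT14, where 6.34% of expressed probesets were apart either way, and with a fold of 1.5 the night change differed in 1 (Ghsr), where it did in 3.01%. The members' medians depended on which probesets passed the floor: with none, they were -0.0095 for night in non-HPX, 0.036 for night in HPX, -0.083 for HPX at ZT2 and 0.048 at ZT14; with the floor set from silent genes (10 members) they were -0.0028, 0.12 and 0.088 for night in non-HPX, night in HPX and HPX at ZT14. Under cyclic loess 4 of 48 member differences turned sign, none larger than 0.045. Over all probesets, without the floor 882, 923, 814 and 634 were at least 1.5-fold apart in place of 132, 224, 100 and 78 (night in non-HPX, night in HPX, HPX at ZT2, HPX at ZT14), with 60.2%, 43.3%, 64.7% and 47.0% higher. By limma 34 passed for time of day and 9 for surgery, but 1 and 0 without the floor, 4 and 0 under the stricter one, 11 and 0 with the floor from silent genes and 60 and 15 by gene means. The cause of the other changes was not tested.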
